A study of Mus musculus with 9 samples.

Results

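Pericytes and vascular smooth muscle cells are the mural cells that wrap retinal vessels. Described here are 10 genes in common use as their markers: Rgs5, Kcnj8, Abcc9, Higd1b, Cspg4, Anpep, Acta2, Tagln, Myh11 and Des. They were taken by symbol from a table of 25108 genes and gene models, in which each of the 10 had exactly 1 entry, and all 10 passed the filter on low values together with 15678 entries in total. Retinal RNA was sequenced from C57BL/6 mice at postnatal day 17 in 9 libraries, 3 per group. The OIR KO group was IL-19 knockout mice with oxygen-induced retinopathy (OIR), the OIR WT group wild-type mice with the same retinopathy, and the RA WT group wild-type mice kept in room air. In this model, pups breathe high oxygen, lose part of the retinal vessels, and then grow abnormal new vessels back in room air. The genotypes were compared within retinopathy alone, as room-air knockout retinas were not analysed here. No source used here gives the kind of knockout allele.

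Pericytes sit on capillaries inside the basement membrane, are recruited by platelet-derived growth factor B from endothelium, and stabilise young vessels; the retina is known for its dense pericyte cover. Smooth muscle cells ring arterioles and hold the contractile proteins that set vessel width. The genes fall by role into a signalling regulator (Rgs5), the subunits of a potassium channel (Kcnj8 and Abcc9), a mitochondrial protein (Higd1b), surface proteins (Cspg4 and Anpep) and the contractile apparatus (Acta2, Tagln, Myh11 and Des). In whole retina, a change in the number of mural cells and a change in RNA per cell cannot be told apart.

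The genes lie on 7 chromosomes of GRCm38. Kcnj8 and Abcc9 are neighbours on chromosome 6, both on the minus strand, at 142564837 to 142571614 and 142587862 to 142702315, with 16247 bases and 0 annotated genes between them. Rgs5 is at 169655501 to 169695813 on the plus strand of chromosome 1, and Acta2 at 34241090 to 34255590 on the minus strand of chromosome 19. Exons of Tagln share 1241 bases with the antisense gene Gm48529 and 108 bases with Pcsk7 on the other strand. Exons of Des share 220 bases and those of Abcc9 158 bases with antisense genes. No strand setting is given in the sources used here, so such reads cannot be told apart. Acta2 is one of several near-identical actin genes, whose reads could be split between copies, so its value is uncertain in that respect.

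RefSeq start-site windows of 300 bases, 250 before and 50 after the start, were at hand for 7 of the genes (GRCm38.p6). Tagln, Myh11 and Higd1b had no entry. They were searched for the CArG box, the element of 10 bases that serum response factor binds in contractile genes, which reads the same on both strands. A perfect CArG box was in 0 of the 7 windows and in 1.63% of all 32851 windows in the table. With exactly 1 base differing, it was in 3 of 7 windows, those of Acta2, Cspg4 and Kcnj8, against 19.9% of all windows. The short cores of the hypoxia response element were searched on both strands, where ACGTG was in 0 of 7 windows (19.6% of all) and GCGTG, which differs from it in the opening letter, in 3 of 7 (32.4% of all). These matches are descriptions of letters in a window. The 4 windows printed belong to the genes, among the 7, that rose in wild-type retinopathy, so that a reader can set their starts side by side. Capitals mark the CArG box with 1 base differing, and the Cspg4 capitals hold a pair of overlapping matches. The windows are chr19:34255324-34255623 on the minus strand for Acta2, chr9:56864854-56865153 on the plus strand for Cspg4, chr1:169655251-169655550 on the plus strand for Rgs5 and chr1:75360042-75360341 on the plus strand for Des.
Acta2: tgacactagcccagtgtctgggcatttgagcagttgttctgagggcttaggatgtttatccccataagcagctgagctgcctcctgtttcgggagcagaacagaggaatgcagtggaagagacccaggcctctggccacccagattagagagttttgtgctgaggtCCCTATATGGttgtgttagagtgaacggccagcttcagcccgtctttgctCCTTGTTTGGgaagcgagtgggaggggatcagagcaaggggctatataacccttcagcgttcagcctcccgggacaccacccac
Cspg4: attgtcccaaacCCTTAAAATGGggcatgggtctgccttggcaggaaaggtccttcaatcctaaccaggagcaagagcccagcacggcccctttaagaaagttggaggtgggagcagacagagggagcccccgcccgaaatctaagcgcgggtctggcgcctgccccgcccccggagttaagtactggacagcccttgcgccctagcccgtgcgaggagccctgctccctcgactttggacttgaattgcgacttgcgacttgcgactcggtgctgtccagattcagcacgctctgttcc
Rgs5: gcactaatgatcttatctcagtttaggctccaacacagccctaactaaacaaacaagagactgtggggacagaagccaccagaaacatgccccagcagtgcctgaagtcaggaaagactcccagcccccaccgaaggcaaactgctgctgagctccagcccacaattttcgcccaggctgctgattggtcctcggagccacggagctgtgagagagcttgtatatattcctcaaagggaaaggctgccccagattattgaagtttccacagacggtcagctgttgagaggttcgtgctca
Des: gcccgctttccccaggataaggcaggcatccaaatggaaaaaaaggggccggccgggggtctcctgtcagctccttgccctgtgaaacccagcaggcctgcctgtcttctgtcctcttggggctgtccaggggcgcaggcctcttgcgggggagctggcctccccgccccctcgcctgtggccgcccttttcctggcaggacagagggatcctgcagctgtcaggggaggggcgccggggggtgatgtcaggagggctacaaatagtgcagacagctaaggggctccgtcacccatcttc
The 2 Acta2 matches, CCCTATATGG and CCTTGTTTGG, start 84 and 34 bases before the start site. In Kcnj8, CCTTTTAAAG starts 46 bases before it.

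Values are in FPKM, a level scaled for transcript length and sequencing depth, which allows genes to be compared. Tests used limma on log2(FPKM + 0.5) over all 15678 entries, with Benjamini-Hochberg adjustment, and "rose" or "fell" means an adjusted p under 0.05. Log2 differences are on that scale, which understates changes of low genes. Libraries of a group correlated across genes with r from 0.974 to 0.985. The sequencing depth behind the values is unknown. Il19 itself was listed at 0 in all OIR KO and OIR WT libraries and at 0.0406 FPKM in RA WT 1 alone among the RA WT libraries, so its level does not check the genotype labels. Y-linked genes (4 of them) summed to 0 in OIR KO 1 and RA WT 2 and to between 32.9 and 64.4 FPKM in the other 7 libraries, and the lens gene Cryaa reached 7.68 FPKM in OIR KO 2 and 11.6 FPKM in RA WT 1. Nothing in the labels says that the samples of a group came from separate animals, so a p-value here reflects sample-to-sample spread that could be technical.

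Most of these genes rose in wild-type retinas with retinopathy, and the contractile genes Acta2, Tagln and Des showed the largest differences beside the pericyte gene Higd1b. Of the 10 genes, 6 rose and 0 fell in OIR WT against RA WT, where 8.04% of all entries tested rose, 7.92% fell and 16.0% changed in either direction. All 3 OIR WT libraries lay above all 3 RA WT libraries for 7 genes (17.8% of all entries) and below them for 0 (17.2% of all entries). In OIR KO against RA WT, 4 genes rose and 0 fell, where 4.75% of all entries rose, 5.69% fell and 10.4% changed. There, all OIR KO libraries lay above all RA WT libraries for 9 genes (17.3% of all entries) and below them for 1 gene, Myh11 (15.4% of all entries). Both comparisons share the RA WT libraries. The median log2 difference of the 10 genes was 0.98 in OIR WT and 0.95 in OIR KO, each against RA WT, beside 0.015 and 0.025 for all entries. Anpep passed the filter on low values through the OIR KO libraries alone, so its place in these counts is not free of that choice.

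**Figure D1:**
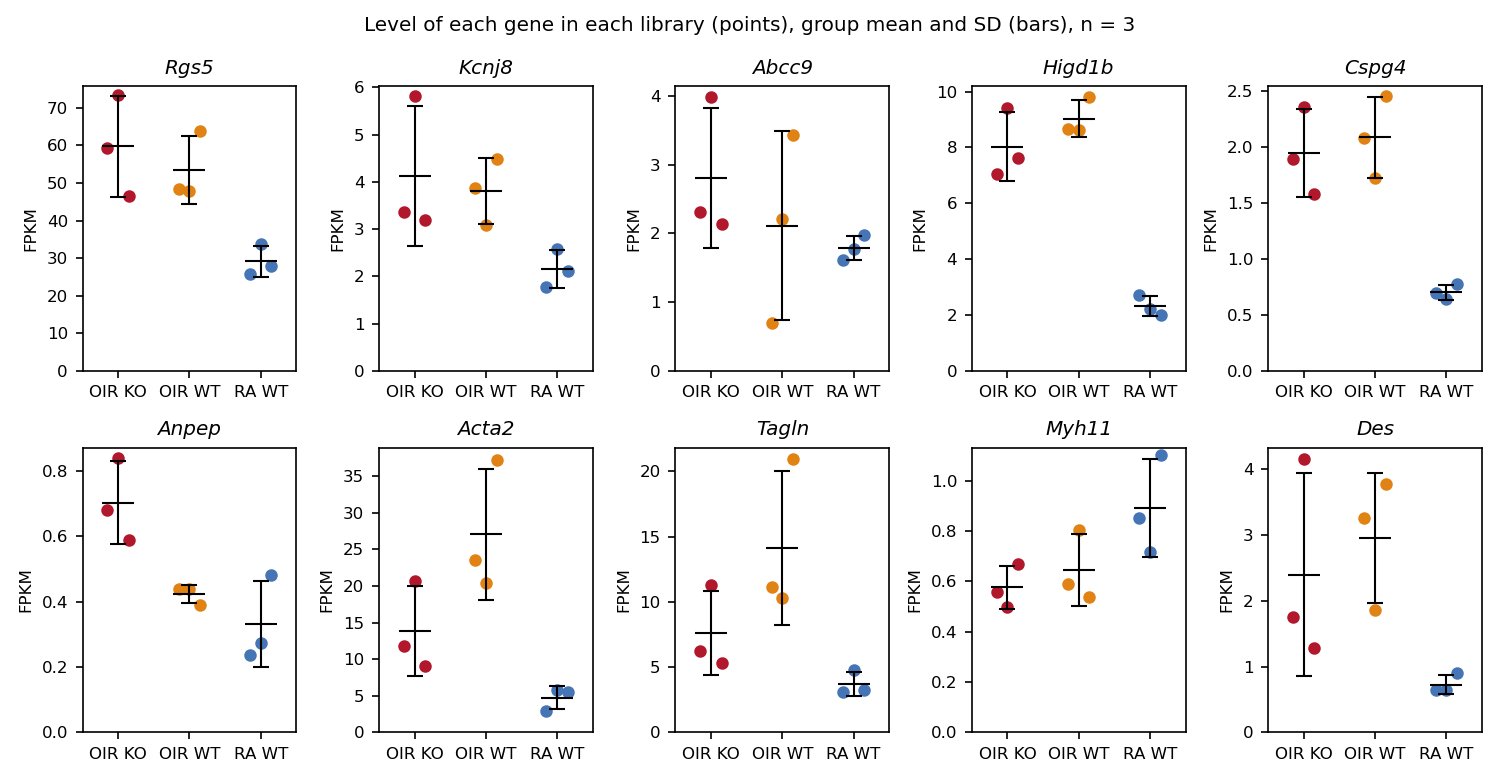
FPKM (vertical axes, each from 0) of the 10 genes in the OIR KO, OIR WT and RA WT libraries; points are libraries, bars the group mean and SD (n = 3). For 9 genes the OIR KO points lie above the RA WT points, and for Myh11 they lie below.

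Rgs5, a regulator of G-protein signalling that marks pericytes, had the highest level of the 10 genes in every group. It was at 59.4, 73.4 and 46.5 FPKM in OIR KO 1, 2 and 3, at 48.5, 47.8 and 63.8 FPKM in OIR WT 1, 2 and 3, and at 25.8, 33.8 and 28.0 FPKM in RA WT 1, 2 and 3. Every retinopathy library was above every room-air library, and the OIR KO and OIR WT ranges overlapped. Rgs5 rose 1.83-fold by the means in OIR WT (log2 0.86, SE 0.18, limma adjusted p = 0.0128) and 2.05-fold in OIR KO (log2 1.01, SE 0.18, limma adjusted p = 0.00993), each against RA WT. OIR KO differed from OIR WT by a log2 value of 0.15, with a 95% interval from -0.25 to 0.55 and an adjusted p of 0.833 by limma.

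Kcnj8 encodes Kir6.1, the pore of the vascular ATP-sensitive potassium channel, and Abcc9 encodes SUR2, its regulatory subunit. Kcnj8 was at 3.35, 5.83 and 3.20 FPKM in OIR KO, at 3.87, 3.09 and 4.48 FPKM in OIR WT and at 1.78, 2.58 and 2.11 FPKM in RA WT. Its retinopathy libraries all lay above its room-air libraries, but the differences just missed the threshold. They were log2 0.77 (SE 0.22) in OIR KO and 0.70 (SE 0.22) in OIR WT against RA WT, with limma adjusted p of 0.0559 and 0.0606. The adjusted p in OIR KO against RA WT was 0.0416 without OIR KO 3, 0.0453 with each library divided by its FPKM total and 0.0457 with a covariate from the lens gene Cryaa. Leaving out OIR KO 2 brought it in OIR WT against RA WT to 0.0191, and a fit on the 6 libraries of that comparison to 0.0319. In all other alternative fits neither difference passed. The limma adjusted p reached 0.151 in OIR KO and 0.177 in OIR WT when 1 library was left out.

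Abcc9 was at 2.31, 3.98 and 2.14 FPKM in OIR KO, at 0.690, 2.21 and 3.44 FPKM in OIR WT and at 1.62, 1.77 and 1.97 FPKM in RA WT. OIR WT 1 was the lowest of the 9 libraries although its Kcnj8 level was not low, and the OIR WT and RA WT ranges overlapped. The log2 difference was 0.49 (95% interval from -0.39 to 1.38, limma adjusted p = 0.458) in OIR KO and 0.03 (95% interval from -0.85 to 0.92, limma adjusted p = 0.967) in OIR WT, each against RA WT. Set against OIR WT, OIR KO differed by 0.46 (95% interval from -0.42 to 1.35), and by -0.024 without OIR WT 1. Without OIR WT 1 the difference of OIR WT from RA WT was 0.52, and without OIR WT 3 it was -0.34. The ratio of Kcnj8 to Abcc9 shows the same library from the side of the pair. It was 1.45, 1.46 and 1.5 in OIR KO, 5.61, 1.39 and 1.30 in OIR WT and 1.10, 1.46 and 1.07 in RA WT. Their subunit relatives Kcnj11 and Abcc8, which make up the neuronal and endocrine form of the channel, passed the test in none of the 3 comparisons.

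Higd1b, a mitochondrial inner membrane protein enriched in pericytes, was at 7.04, 9.41 and 7.63 FPKM in OIR KO, at 8.66, 8.63 and 9.81 FPKM in OIR WT and at 2.70, 2.22 and 2.0 FPKM in RA WT. The highest room-air library was far below the lowest retinopathy library. Higd1b rose 3.48-fold by the means in OIR KO (log2 1.60, SE 0.14, limma adjusted p = 0.000868) and 3.91-fold in OIR WT (log2 1.77, SE 0.14, limma adjusted p = 0.000240), each against RA WT. Between OIR KO and OIR WT the difference was -0.17, with a 95% interval from -0.48 to 0.14.

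The surface proteins Cspg4 and Anpep went apart in OIR WT against RA WT. In OIR KO, all libraries of both lay above all RA WT libraries. Cspg4, the proteoglycan NG2 on pericytes and on precursors of oligodendrocytes, was at 1.9, 2.36 and 1.58 FPKM in OIR KO, at 2.08, 1.73 and 2.45 FPKM in OIR WT and at 0.697, 0.639 and 0.773 FPKM in RA WT. No retinopathy library overlapped the room-air range. Cspg4 rose in OIR KO (log2 1.01, SE 0.16, limma adjusted p = 0.00676) and in OIR WT (log2 1.10, SE 0.16, limma adjusted p = 0.00362), with a difference between them of -0.08 (95% interval from -0.45 to 0.28). The 7 markers of oligodendrocyte precursors summed to 21.7 to 23.3 FPKM in OIR KO, 21.1 to 24.4 FPKM in OIR WT and 19.7 to 24.5 FPKM in RA WT, most of it from Lhfpl3. Neu4 was listed at 0 in all 9 libraries, Olig2 did not exceed 0.0406 FPKM and Sox10 did not exceed 0.391 FPKM. Olig1 was at 0.293, 0.206 and 0.089 FPKM in OIR KO and 0.486, 0.047 and 0.556 FPKM in OIR WT, and listed at 0, 0 and 0.071 FPKM in RA WT. Lhfpl3 and Cnksr3, which alone of the 7 passed the filter, passed the test in neither comparison with RA WT. The part of these cells in the Cspg4 values was not tested.

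Anpep, the aminopeptidase CD13 of pericytes and myeloid cells, was at 0.681, 0.839 and 0.589 FPKM in OIR KO, at 0.439, 0.437 and 0.390 FPKM in OIR WT and at 0.236, 0.275 and 0.482 FPKM in RA WT. The OIR KO libraries stood above all others, whereas OIR WT lay inside the RA WT range. The gene passed the test in none of the comparisons. Its log2 difference was 0.38 (95% interval from 0.01 to 0.75, limma adjusted p = 0.492) in OIR KO against OIR WT, 0.54 (limma adjusted p = 0.0647) in OIR KO against RA WT and 0.16 (limma adjusted p = 0.552) in OIR WT against RA WT. Without the trend and robust options of limma, the adjusted p of OIR KO against RA WT was 0.0334. That difference passed in no other fit, and its limma adjusted p reached 0.199 when 1 library was left out. The summed level of 9 macrophage markers, cells that can also carry CD13, was 15.9 to 25.0 FPKM in OIR KO, 21.9 to 27.7 FPKM in OIR WT and 11.7 to 13.0 FPKM in RA WT, with 0 of the 9 at 0 in a whole group. Of the 6 that passed the filter, 3 rose (Lyz2, Cd68 and Csf1r) and 1 fell in each comparison with RA WT. The fall was that of Lyve1 (log2 -0.54 in OIR KO and -0.77 in OIR WT). Calls of Csf1r in both, and of Cd68 and Lyve1 in OIR KO, were lost without 1 of several libraries (adjusted p up to 0.117). The part of macrophages in the Anpep values was not tested.

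Acta2, smooth muscle alpha-actin, gave the largest difference of the 10 genes from room air in OIR WT. It was at 11.7, 20.7 and 9.03 FPKM in OIR KO, at 23.6, 20.4 and 37.2 FPKM in OIR WT and at 2.95, 5.75 and 5.53 FPKM in RA WT. Retinopathy libraries were all above room air, and OIR KO 2 overlapped the OIR WT range while OIR KO 1 and 3 lay below it. Acta2 rose 5.70-fold by the means in OIR WT (log2 2.40, SE 0.36, limma adjusted p = 0.00488) and 2.91-fold in OIR KO (log2 1.42, SE 0.36, limma adjusted p = 0.0407), each against RA WT. The OIR KO call was lost without RA WT 1, 2 or 3 (adjusted p = 0.0972, 0.0615 and 0.0816), without OIR KO 1 or 2 (0.0919 and 0.102), without OIR WT 1 (0.0635), and in 5 other alternative fits (0.0507 to 0.0649). Between OIR KO and OIR WT, Acta2 had a log2 difference of -0.98, with a 95% interval from -1.79 to -0.17, an unadjusted p of 0.0237 and a limma adjusted p of 0.427.

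Tagln, the actin-binding protein transgelin, was at 6.24, 11.3 and 5.34 FPKM in OIR KO, at 11.2, 10.3 and 20.9 FPKM in OIR WT and at 3.11, 4.78 and 3.28 FPKM in RA WT. As for Acta2, OIR KO 2 alone of the OIR KO libraries reached the OIR WT range. Tagln rose in OIR WT against RA WT (log2 1.74, SE 0.33, limma adjusted p = 0.0104). Its log2 difference of 0.89 (SE 0.33) in OIR KO against RA WT had a limma adjusted p of 0.119, and it passed in none of the 20 alternative fits. The difference of OIR KO from OIR WT was -0.85 (95% interval from -1.59 to -0.10, limma adjusted p = 0.450).

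Des, the intermediate filament desmin of muscle and pericytes, was at 1.76, 4.15 and 1.28 FPKM in OIR KO, at 3.25, 1.86 and 3.77 FPKM in OIR WT and at 0.641, 0.639 and 0.898 FPKM in RA WT. The retinopathy groups overlapped widely and both lay above room air. Des rose in OIR WT against RA WT (log2 1.46, SE 0.34, limma adjusted p = 0.0210). This call was lost without RA WT 1, 2 or 3 (adjusted p = 0.0568, 0.0678 and 0.0524), without OIR WT 1 or 3 (0.0779 and 0.0742), with a covariate from Y-linked genes (0.0604) and with the replicate number as a block (0.0570). The log2 difference was 1.12 in OIR KO against RA WT (limma adjusted p = 0.0670, and 0.0288 without OIR KO 3), and -0.34 in OIR KO against OIR WT (95% interval from -1.11 to 0.43). In OIR KO against RA WT, Des passed in no other fit, with a limma adjusted p of up to 0.152 when 1 library was left out. Of 11 skeletal muscle markers, where desmin is also made, Myh4 was listed at 0 in all 9 libraries, Myh1 and Myh2 did not exceed 0.0375 FPKM, and the sum was 7.59 to 8.71 FPKM in OIR KO, 7.73 to 9.38 FPKM in OIR WT and 8.84 to 9.67 FPKM in RA WT. Against RA WT, 0 of the 4 that passed the filter rose, and Acta1 fell in OIR WT (log2 -0.75, limma adjusted p = 0.0254). Ckm had all retinopathy libraries above all RA WT libraries but was not called. Its log2 differences were 0.61 in OIR KO and 0.50 in OIR WT (limma adjusted p = 0.0726 and 0.109). The part of skeletal muscle in the Des values was not tested.

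Myh11, the smooth muscle myosin heavy chain that marks mature contractile cells, had differences of the other sign. It was at 0.560, 0.499 and 0.670 FPKM in OIR KO, at 0.590, 0.807 and 0.540 FPKM in OIR WT and at 0.852, 0.718 and 1.10 FPKM in RA WT. All OIR KO libraries were below all RA WT libraries, and OIR WT 2 alone of the OIR WT libraries reached into the RA WT range. The log2 differences did not pass the test. They were -0.36 (95% interval from -0.73 to 0.004, limma adjusted p = 0.186) in OIR KO and -0.28 (95% interval from -0.65 to 0.09, limma adjusted p = 0.288) in OIR WT, each against RA WT. The ratio of Acta2 to Myh11 within a library was 21, 41.5 and 13.5 in OIR KO, 39.9, 25.3 and 68.9 in OIR WT and 3.47, 8.0 and 5.02 in RA WT. The lowest retinopathy ratio was above the highest room-air ratio. Acta2 and Tagln kept closer to each other, with ratios of 1.88, 1.84 and 1.69 in OIR KO, 2.11, 1.99 and 1.78 in OIR WT and 0.951, 1.20 and 1.68 in RA WT.

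**Figure D2:**
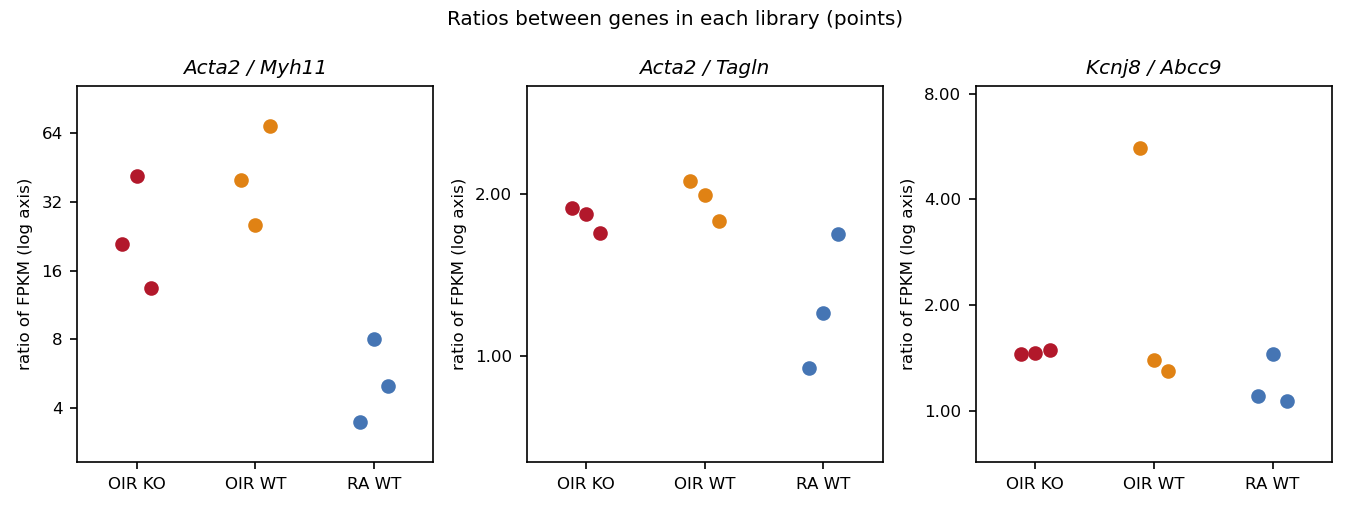
Ratio of FPKM between genes (vertical axes, log scale) in each library (points) of OIR KO, OIR WT and RA WT. The Acta2 to Myh11 ratio is 13.5 or more in every retinopathy library and 8.0 or less in room air, and the Kcnj8 to Abcc9 ratio of 5.61 in OIR WT 1 stands above the other 8 libraries.

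In order of level, Rgs5, Acta2, Tagln, Higd1b, Kcnj8 and Abcc9 led in RA WT, with means of 29.2, 4.74, 3.72, 2.31, 2.16 and 1.79 FPKM, followed by Myh11, Des, Cspg4 and Anpep at 0.891, 0.726, 0.703 and 0.331 FPKM. Neighbours whose library ranges did not overlap there were Rgs5 and Acta2, Tagln and Higd1b, Abcc9 and Myh11, and Cspg4 and Anpep. In OIR WT the order was Rgs5, Acta2, Tagln, Higd1b, Kcnj8, Des, Abcc9, Cspg4, Myh11 and Anpep, so Myh11 stood behind Des and Cspg4 there. In OIR KO, Higd1b at 8.03 ± 1.23 FPKM stood before Tagln at 7.62 ± 3.20 FPKM (SD, n = 3), with overlapping ranges.

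The comparison of OIR KO with OIR WT asks what loss of IL-19 does in retinopathy. Of the 10 genes, 0 passed the limma test, where 0.134% of all entries (21 of 15678) passed, 0.0574% with a rise and 0.0765% with a fall. At an unadjusted p under 0.05 there were 3 genes, Acta2, Tagln and Anpep, beside 9.91% of all entries. The intervals of Rgs5, Kcnj8, Higd1b, Cspg4 and the contractile gene Myh11 reached at most 0.57 in log2 upwards and -0.48 downwards. Among the other pericyte genes, that of Anpep ran from 0.01 to 0.75 and that of Abcc9 from -0.42 to 1.35. Acta2, Tagln, Des and Abcc9 had the widest intervals of the 10 genes. All OIR KO libraries lay above all OIR WT libraries for 1 gene, Anpep (9.73% of all entries), and below them for 0 (7.98% of all entries). Since Anpep was kept by the filter through the OIR KO libraries alone, nothing is read from its place in these counts.

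**Figure D3:**
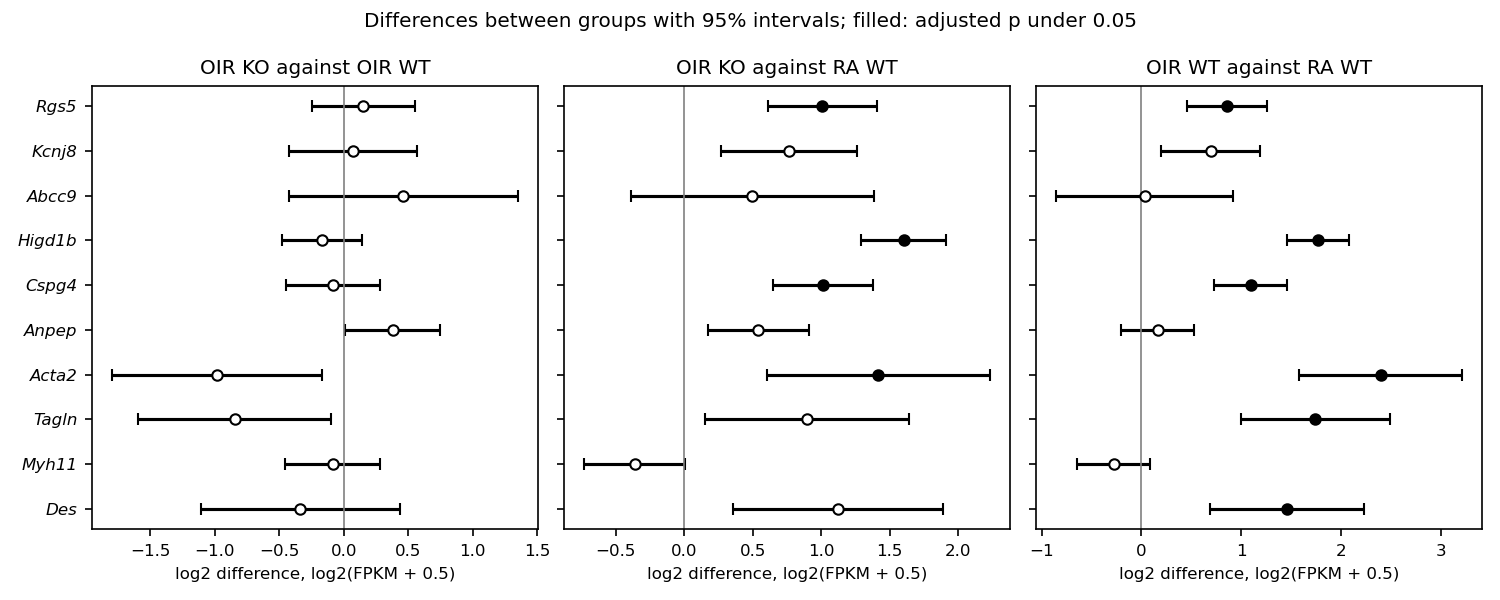
Log2 difference between groups on the log2(FPKM + 0.5) scale (horizontal axes) for each gene, with 95% intervals from limma; filled points have an adjusted p under 0.05. The panels hold 0, 4 and 6 filled points for OIR KO against OIR WT, OIR KO against RA WT and OIR WT against RA WT.

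Within a group the genes moved by library. OIR KO 2 had the highest level of its group in 9 of the 10 genes and OIR KO 3 the lowest in 8, and OIR WT 3 was the highest of its group in 8 genes and OIR WT 2 the lowest in 7. The summed endothelial and the summed erythrocyte markers were also highest in OIR KO 2 and OIR WT 3 within those groups. Not every endothelial marker was, as Cldn5 was highest in OIR KO 1 and OIR WT 1 (45.1 and 27.5 FPKM). The summed level of 14 endothelial markers was 184.6, 215.5 and 152.8 FPKM in OIR KO 1, 2 and 3, 158.4, 125.5 and 168.6 FPKM in OIR WT 1, 2 and 3, and 91.8, 122.8 and 124.2 FPKM in RA WT 1, 2 and 3. Of these endothelial markers 8 rose in OIR KO and 5 rose and 1 fell in OIR WT, each against RA WT, and 0 were at 0 in any group. Of all entries, 4.75% rose and 5.69% fell in OIR KO, and 8.04% rose and 7.92% fell in OIR WT, each against RA WT. The 5 erythrocyte genes summed to 111.7, 1069.9 and 112.9 FPKM in OIR KO, 1170.9, 511.7 and 1431.1 FPKM in OIR WT and 94.8, 82.5 and 157.8 FPKM in RA WT, with 0 of the 5 at 0 in any group. Against RA WT, 5 of these 5 rose in OIR WT (median log2 3.02) and 0 in OIR KO. Each of these calls was lost without some single libraries, among them OIR WT 1 and 3 (limma adjusted p up to 0.137). OIR KO 2 stood with OIR WT in its erythrocyte genes. The 6 astrocyte markers summed to 57.3 to 209.3 FPKM in OIR KO, 75.6 to 174.2 FPKM in OIR WT and 42.0 to 51.2 FPKM in RA WT, with 0 of the 6 at 0 in any group. Gfap, which reactive glia also make, carried most of that sum in OIR KO 2 and OIR WT 3, at 172.7 and 147.7 FPKM. By the limma test, 0 astrocyte markers changed in OIR KO against RA WT. Against the same libraries, 3 rose (Gfap, Aldh1l1 and Pdgfra) and 2 fell (Aqp4, log2 -1.12, and S100b, log2 -0.62) in the OIR WT group. The rises of these 3 and the fall of S100b were each lost without 1 of several libraries, among them OIR WT 1 (adjusted p up to 0.0836 for Gfap, 0.132 for Aldh1l1, 0.129 for Pdgfra and 0.0594 for S100b). Markers of Müller glia differed the other way, with sums of the 7 genes of 1643 to 1931 FPKM in OIR KO and 1106 to 1626 FPKM in OIR WT, against 2073 to 2674 FPKM in RA WT. Of these, 2 fell in OIR KO (list median log2 -0.46) and 4 in OIR WT (median -1.09), 0 rose in either, and 0 were at 0 in any group. The OIR KO falls, of Kcnj10 and Dkk3, were lost without RA WT 3 or OIR KO 1, and that of Dkk3 also without RA WT 2, OIR KO 2, OIR WT 1 or OIR WT 3 (adjusted p up to 0.0509 and 0.118). Without OIR KO 2, Acta2 and Tagln differed between OIR KO and OIR WT by -1.30 and -1.15 in log2, and 0 of the 10 genes passed the test. The part of vessel, blood or glial content in the differences of the 10 genes was not tested.

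**Figure D4:**
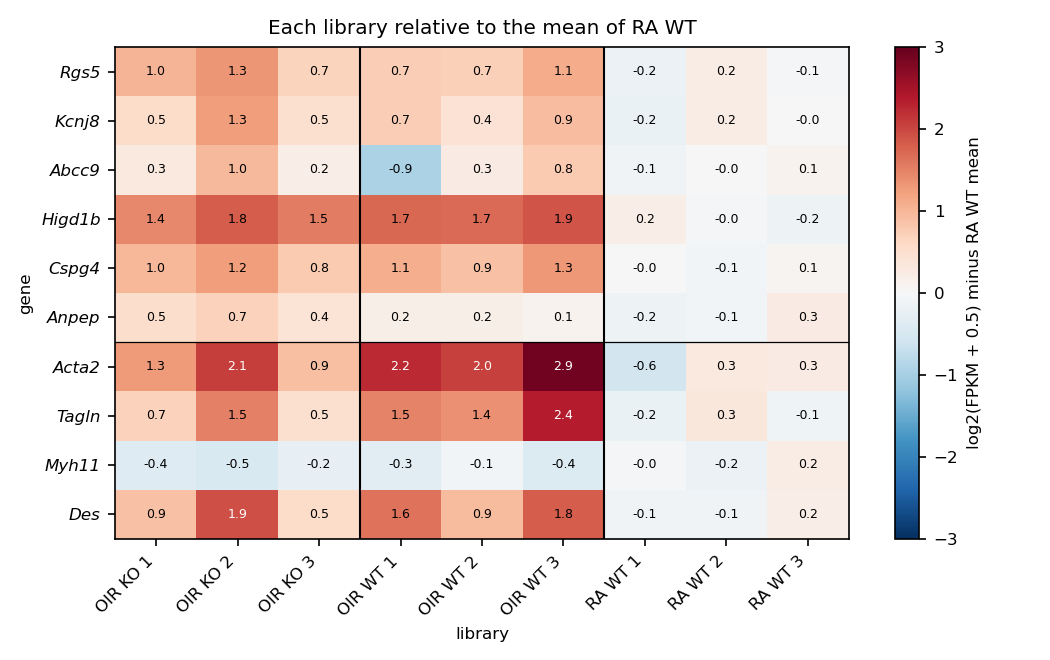
Each library's log2(FPKM + 0.5) minus the mean of RA WT (colour and printed number), with genes as rows and libraries as columns. Acta2 reads from 0.9 to 2.9 in the retinopathy libraries, Myh11 is below 0 in all 6, and Abcc9 is at -0.9 in OIR WT 1.

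Further genes of mural cells came from lists of other markers. Called counts in this and the later lists stand beside the shares over all entries. Against RA WT these were 8.04% risen and 7.92% fallen in OIR WT, and 4.75% risen and 5.69% fallen in OIR KO. Of 20 other pericyte genes, 19 were in the table and 17 passed the filter; 6 rose and 2 fell in OIR WT against RA WT (median log2 0.02), and 3 rose and 2 fell in OIR KO against RA WT (median 0.33). Atp13a5 and Tbx18 did not pass the filter and were not tested. Their means in OIR KO, OIR WT and RA WT were 0.0961, 0.0571 and 0.517 FPKM (Atp13a5) and 0.124, 0.215 and 0.0430 FPKM (Tbx18). Vtn, at means of 273.4, 293.7 and 290.3 FPKM, had log2 differences of -0.08 in OIR KO and 0.02 in OIR WT. The largest rise was that of Ndufa4l2, a mitochondrial protein that is also a hypoxia target, at 111.7 ± 26.4 FPKM in OIR KO and 141.3 ± 19.2 FPKM in OIR WT, against 5.36 ± 1.07 FPKM in RA WT (SD, n = 3). Mcam, the adhesion molecule CD146 shared with endothelium, was at 17.1, 29.9 and 13.3 FPKM in OIR KO, 19.5, 18.7 and 28.2 FPKM in OIR WT and 3.32, 4.10 and 4.51 FPKM in RA WT (log2 2.13 in OIR KO and 2.32 in OIR WT, limma adjusted p = 0.00420 and 0.00235). Both genes kept these calls without each library in turn. Gja4, the gap junction protein connexin 37, also rose in both comparisons (log2 1.24 in OIR KO and 0.76 in OIR WT), and S1pr3, a sphingosine phosphate receptor, in OIR WT (log2 1.18). The fallen genes were Rgs4, a relative of Rgs5 that neurons also express, at 14.3 ± 1.19 FPKM in OIR KO and 16.1 ± 3.95 FPKM in OIR WT, against 31.0 ± 7.12 FPKM in RA WT, and the transcription factor gene Ebf1 (log2 -0.59 in OIR KO and -0.44 in OIR WT). The OIR WT calls were lost for Gja4 without OIR WT 1, 2 or 3 (adjusted p up to 0.0887), for S1pr3 without RA WT 3, OIR WT 1 or OIR WT 3 (up to 0.0595), for Rgs4 without RA WT 2 or 3 (up to 0.0541) and for Ebf1 without OIR WT 1, 2 or 3 or RA WT 1 or 2 (up to 0.104). The OIR KO calls of Rgs4 and Ebf1 were lost without OIR KO 1 (0.0507 and 0.0522). Leaving out a library gave a low of 3 called genes in this list in OIR WT against RA WT, when it was OIR WT 1 or 3, against 4 when it was RA WT 3 and 5 when it was RA WT 2 or OIR WT 2. For OIR KO against RA WT the number was 3 without OIR KO 1 and 8 without OIR KO 3.

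Of 20 other contractile genes, 17 passed the filter, and 7 rose and 0 fell in each of the comparisons with RA WT (median log2 0.42 in OIR WT and 0.45 in OIR KO). Actg2, the enteric smooth muscle actin, was at 0.586, 1.39 and 0.984 FPKM in OIR KO, at 1.57, 2.08 and 3.03 FPKM in OIR WT, and listed at 0, 0.178 and 0 in RA WT. It passed the filter through the retinopathy libraries alone and shares near-identical sequence with Acta2. Tpm2, a tropomyosin, was at 3.37 ± 1.24 FPKM in OIR KO and 6.83 ± 2.03 FPKM in OIR WT, against 1.31 ± 0.354 FPKM in RA WT (log2 1.07 in OIR KO and 2.0 in OIR WT). Pdlim3, Cald1, Flna and Map3k7cl also rose in both comparisons. Map3k7cl, at 0.140, 0.392 and 0.249 FPKM in RA WT, passed the filter through the retinopathy libraries alone, as Actg2 did. The place of these genes in the counts is therefore not free of that choice. Myl9, a myosin light chain, rose in OIR WT (log2 1.28), and Smtn, smoothelin, in OIR KO (log2 0.48). Mylk, the kinase of that light chain, had log2 differences of -0.04 in OIR KO and -0.01 in OIR WT. Between OIR KO and OIR WT 0 genes of either list passed the limma test. Of the contractile list, Tpm2, Actg2, Myl9 and Tpm1 had all OIR KO libraries below all OIR WT libraries, with log2 differences of -0.93, -0.88, -0.61 and -0.23 and limma adjusted p of 0.305, 0.317, 0.404 and 0.456. For 0 genes of that list were they all above. In the other pericyte list 3 genes lay wholly above and 3 wholly below. The shares over all entries were 9.73% above and 7.98% below. The call of Tpm2 in OIR KO against RA WT was lost without RA WT 2 or 3, OIR KO 1 or 2, or OIR WT 1 (adjusted p up to 0.103). Calls of Smtn in OIR KO (without RA WT 1 or 2 or OIR KO 1 or 2, up to 0.0855), of Cald1 in OIR KO (without RA WT 3, 0.0566) and of Map3k7cl in both (without most single libraries, up to 0.146) were lost too. The number of risen contractile genes in OIR KO against RA WT was 4 without RA WT 3 or OIR KO 1.

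Among 15 genes for serum response factor, its cofactors and mural transcription factors, 13 were in the table and 11 passed the filter. Foxf2, a forkhead factor of pericytes, rose in both comparisons with RA WT (3.87 ± 0.741 FPKM in OIR KO and 2.87 ± 0.334 FPKM in OIR WT, against 1.54 ± 0.465 FPKM in RA WT). Heyl rose in OIR KO (log2 0.69) and Hey2 in OIR WT (log2 0.93), both of them Notch targets, and Tbx2 fell in OIR WT (log2 -0.43). Leaving out 1 library ended the calls of Foxf2 in OIR WT (RA WT 1 or 2, OIR WT 1 or 3, adjusted p up to 0.0916), of Hey2 (RA WT 1 or 3, OIR WT 1 or 3, up to 0.0893) and of Heyl (any but OIR KO 3, up to 0.118). Srf itself had log2 differences of 0.29 in OIR KO and 0.24 in OIR WT, with limma adjusted p of 0.113 and 0.170. Myocd, the cofactor that drives smooth muscle genes, was at 0.551, 0.926 and 0.252 FPKM in OIR KO, 0.887, 0.374 and 0.644 FPKM in OIR WT and 0.295, 0.0986 and 0.204 FPKM in RA WT, and did not pass (log2 0.58 and 0.68, limma adjusted p = 0.178 and 0.105).

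Of 15 ligands and receptors of mural cell recruitment, 14 passed the filter, with 5 risen and 1 fallen in OIR KO and 6 risen and 2 fallen in OIR WT, each against RA WT. Pdgfb, the endothelial ligand that draws pericytes, was at 5.94, 9.90 and 5.08 FPKM in OIR KO, 7.22, 9.20 and 9.41 FPKM in OIR WT and 1.97, 2.92 and 2.66 FPKM in RA WT. It rose in both comparisons (log2 1.27 in OIR KO and 1.60 in OIR WT, limma adjusted p = 0.0101 and 0.00324). Its receptor Pdgfrb, made by the mural cells, was at 8.14 ± 1.98 FPKM in OIR KO and 8.24 ± 1.08 FPKM in OIR WT, against 5.35 ± 0.576 FPKM in RA WT (SD, n = 3). Pdgfrb rose in OIR WT (log2 0.58, limma adjusted p = 0.0411), a call that was lost without any 1 of the RA WT or OIR WT libraries or without OIR KO 1 (adjusted p up to 0.136). Angpt2, a destabilising ligand of the receptor Tek, rose in both (log2 1.87 in OIR KO and 2.57 in OIR WT). Tek itself fell in OIR WT (log2 -0.95, limma adjusted p = 0.0154), a call lost without RA WT 3 or OIR WT 3 (up to 0.0583). Its log2 difference in OIR KO was -0.23 and did not pass. Tgfb1 (log2 1.18 in OIR KO and 1.43 in OIR WT) and Eng (log2 1.05 and 1.04) rose in both comparisons. Each call of Tgfb1 and Eng was lost without at least 1 single library (adjusted p up to 0.0981). S1pr1, an endothelial receptor of sphingosine phosphate, fell in both (log2 -0.55 in OIR KO and -0.87 in OIR WT). The OIR KO call of Angpt2 was lost without RA WT 1, 2 or 3 or OIR KO 1 (adjusted p up to 0.0697). That of S1pr1 was lost without RA WT 2 or 3 or any OIR KO library (up to 0.0961).

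**Figure D5:**
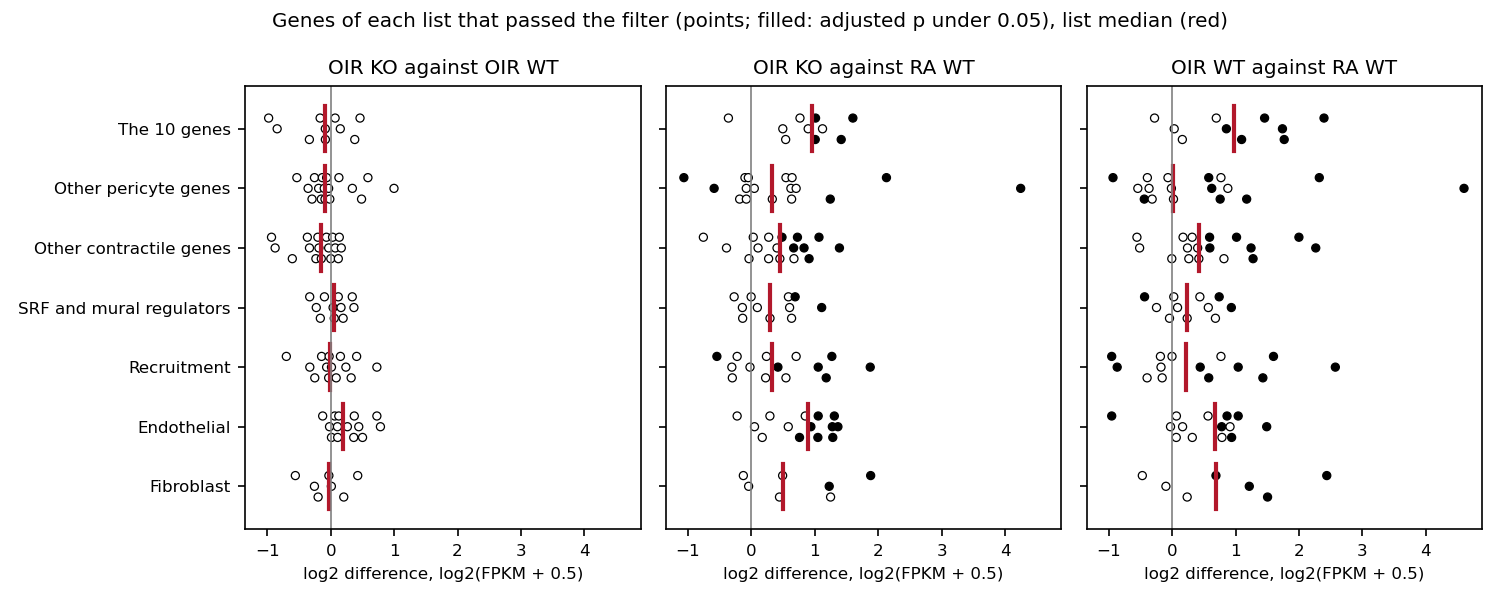
Log2 differences between groups on the log2(FPKM + 0.5) scale (horizontal axes) of the genes in 7 lists that passed the filter; points are genes, filled where the adjusted p is under 0.05, and red lines are list medians. No point is filled for OIR KO against OIR WT, while in the comparisons with RA WT the 10 genes have medians of 0.95 and 0.98.

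Fibroblasts also make Acta2 and Tagln. Of 11 fibroblast markers 7 passed the filter, of which 2 rose in OIR KO and 4 in OIR WT against RA WT. Their sum was 22.8 to 45.5 FPKM in OIR KO, 25.9 to 30.3 FPKM in OIR WT and 17.0 to 40.1 FPKM in RA WT. Fbln1 carried much of that sum, with 31.5 FPKM in RA WT 3. The collagen genes Col1a1 (log2 1.88 in OIR KO and 2.44 in OIR WT) and Col3a1 (log2 1.23 in OIR KO and 1.22 in OIR WT) rose in both comparisons, and Col6a3 (log2 1.51) and Pdgfra (log2 0.69) in OIR WT. Col1a1 was at 2.11, 4.47 and 1.41 FPKM in OIR KO, 4.27, 3.03 and 4.19 FPKM in OIR WT and 0.208, 0.354 and 0.320 FPKM in RA WT. Col1a1 kept both calls without each library in turn. Col1a1 and Col6a3 passed the filter through the retinopathy libraries alone, as no RA WT library reached 0.5 FPKM for them. Their place in these counts is therefore not free of that choice. Calls were lost for Col3a1 in OIR KO without RA WT 1 or OIR KO 1 (adjusted p up to 0.0549) and in OIR WT without OIR WT 1 or 3 (up to 0.0535), and for Col6a3 and Pdgfra without RA WT 1, 2 or 3 or OIR WT 1 or 3, for Col6a3 also without OIR KO 1 (up to 0.114 and 0.129). Dcn, Lum and Dpt did not exceed 0.413, 0.0349 and 0.0898 FPKM in any library. The part of fibroblasts in the contractile genes was not tested. Markers of the iris, ciliary body and pigmented cells, tissues with muscle of their own, had median sums of 101.6 FPKM in OIR KO, 60.8 FPKM in OIR WT and 107.6 FPKM in RA WT, with 0 of the 10 at 0 in any group. Their highest sum, 177.5 FPKM, was in RA WT 3, and their lowest, 52.9 FPKM, in OIR WT 1. Of the 9 that passed the filter, 0 changed in OIR KO against RA WT. Optc alone fell in OIR WT (log2 -1.23, limma adjusted p = 0.0158), a call lost without RA WT 2, OIR WT 1 or OIR WT 3 (up to 0.0611). The part of these tissues in the contractile genes was not tested.

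By the shape of the profile over the 9 libraries, the genes closest to the mean pericyte profile were Ifitm3, Ednra, Bst2, Smtn and Emp1. The root-mean-square distance between standardised log2 profiles was 0.163 to 0.211 for these genes, against 0.203 for Rgs5, 0.855 for Abcc9 and 0.614 for Anpep, which are themselves in the mean. Ednra, the endothelin receptor of mural cells, was at 2.42, 4.48 and 2.18 FPKM in OIR KO, 2.40, 2.26 and 2.85 FPKM in OIR WT and 0.854, 1.07 and 1.30 FPKM in RA WT. Closest to the contractile profile were Gadd45g, Slc2a1, Bhlhe40, Fosl2 and Errfi1, at distances of 0.166 to 0.204, while Acta2 was at 0.256, Tagln at 0.338, Des at 0.412 and Myh11 at 1.63. Slc2a1, the glucose transporter of the blood-retinal barrier, was at 135.9, 167.8 and 124.8 FPKM in OIR KO, 182.8, 162.4 and 210.9 FPKM in OIR WT and 95.6, 98.5 and 116.9 FPKM in RA WT. These distances describe likeness over 9 libraries that fall into 3 groups.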

How the data were processed

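Retinal RNA was sequenced in 9 samples, 3 per group. Per the labels' protocols, RNA was extracted with Trizol and libraries were made with an NEBNext Ultra kit. The authors deposited 1 table of FPKM values with 1 column per library. HISAT2 and the build GRCm38 are named in the submitters' processing notes; no source used here gives their versions, the quantifier, the annotation or the strand setting.

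An entry was kept if 3 or more of the 9 libraries reached 0.5 FPKM. A linear model with 1 mean per group was fitted to log2(FPKM + 0.5) of all 9 libraries with limma 3.58.1 in R 4.3.3, with the trend and robust options and without covariates, and was tested on simulated data. Each of 3 comparisons was two-sided, with Benjamini-Hochberg adjustment over all kept entries. Whole reads could not be recovered, since 25.8 to 29.1% of a library's low values came within 0.02 of a multiple of the best step. Depth is therefore unknown, and count models and counting intervals were not used. Positions came from GENCODE M21 (GRCm38), to which 22022 IDs matched, and start-site windows from RefSeq (GRCm38.p6). Same-numbered libraries had deviations from their group means that correlated from -0.35 to 0.13, so the numbers were not taken to pair them. There were 11 alternative fits and 9 that each left out 1 library.

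The genes named are the 10 markers, up to 4 called genes per direction of each list and genes with a role described, and the 5 genes closest to each profile with a mean of at least 1 FPKM. Map3k7cl, Flna, Tpm1, Atp13a5, Tbx18, Vtn and Ckm were named after their values were seen. The members and lists were chosen with earlier results of these data known.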

Additional observations from a re-analysis of the deposited data

How the results depend on the processing

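Over the 20 alternative fits, 5 to 7 of the 10 genes rose in OIR WT and 3 to 6 in OIR KO against RA WT, and 0 passed in OIR KO against OIR WT. Over all entries, the number called in OIR KO against OIR WT was 13 with a filter of 1 FPKM, 13 without the trend and robust options, 8 with the replicate block and 11 to 42 when 1 library was left out (42 without OIR KO 2), against 21 as reported. In OIR KO against RA WT, 1081 were called with the replicate block and 709 to 1791 with 1 library left out, against 1636. In OIR WT against RA WT, 1581 were called with a covariate from Y-linked genes and 1031 to 2814 with 1 library left out, against 2503. With the replicate block Acta2 in OIR KO and Des in OIR WT, each against RA WT, were not called (adjusted p = 0.0649 and 0.0570); the cause was not tested.

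Of the refitted values of the 10 genes, 555 kept their sign and side of the threshold, 18 lost the call, 7 gained it and 14 changed sign. The sign turned in uncalled values alone. For Abcc9 in OIR WT against RA WT it was -0.014 with a pseudocount of 0.1, -0.024 with quantile normalization and -0.031 with the Y-linked covariate, and ranged from -0.34 to 0.52 with 1 library left out. In OIR KO against OIR WT, Kcnj8 was at -0.069 with a Cryaa covariate. With 1 library left out there, Kcnj8 ranged from -0.18 to 0.21, Abcc9 from -0.024 to 0.84, Cspg4 from -0.20 to 0.026, Myh11 from -0.15 to 0.013 and Rgs5 from -0.0084 to 0.32. Anpep and Myh11 gave no value with the filter of 1 FPKM. The lists of other genes were refitted by a choice made after seeing the data. Without known depth, no counting error can be given for low values such as those of Anpep and Myh11.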
